A study of Mus musculus with 12 samples.

Results

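The genes described here encode subunits of the proteasome. They were chosen by symbol, as every gene whose name starts with Psma, Psmb, Psmc or Psmd followed by a digit, on reads with a passing tail call and without pseudogenes. Of 14011 genes with a read, 37 matched. They fell into 14 constitutive genes of the 20S core (7 alpha and 7 beta), 2 variant core genes (Psmb9 and Psmb10), 17 genes of the 19S base and lid, 3 genes of 19S assembly chaperones, and Psmc3ip, which the letters catch although its product is a meiotic recombination factor and no proteasome subunit. Psmd2 and Psmd4 stand in the base and Psmd14 in the lid. A further 3 variants that match the letters, Psma8, Psmb8 and Psmb11, had no read in any library. The 37 genes held 46334 reads, 1.1% of all reads kept.

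P19, the line the reads came from, is a wild-type embryonal carcinoma of mouse that can be turned into neuron-like cells. D0 cells were undifferentiated, and D2, D4 and D6 cells had spent 2, 4 or 6 days on poly-L-lysine in NDiff 227 medium with 500 nM retinoic acid, renewed daily. Each day had 3 libraries of native RNA read on nanopores, so that 1 read stands for 1 RNA molecule, tail included. Kept reads ran from 118587 to 602155 per library and were fewest at D2. Every sequencing run held a single day, so day and run cannot be told apart. The names of the D0 runs also carry a D2 mark, and those of 2 of the 4 D6 runs give no day. Pou5f1, the pluripotency factor, was at 1728 ± 151 CPM (reads of a gene per 1000000 scaled reads of its library) in the undifferentiated cells and 0.916 ± 1.59 at D6 (means and SD of 3 libraries), while all 8 neuronal markers listed were higher at D6. Of the other pluripotency markers Zfp42, Dppa5a and Fgf4 had no read at any day and Nanog had 17 reads in all. No endoderm or mesoderm marker reached 30 reads (Gata6 had 9 and the other 6 had none), and of 5 glial markers only Mbp did. In bulk RNA, fewer cells of a type and less RNA per cell cannot be told apart.

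The proteasome degrades proteins tagged with ubiquitin. Its 20S core is a barrel of stacked alpha and beta rings whose beta subunits PSMB5, PSMB6 and PSMB7 carry the chymotrypsin-like, caspase-like and trypsin-like sites, and immune cells or cytokines exchange them for PSMB8, PSMB9 and PSMB10. The 19S particle caps the barrel: its base unfolds substrates with an ATPase ring and holds ubiquitin receptors, and its lid removes the ubiquitin chain. Turnover by the proteasome is known to matter for the remodelling of proteins as neurons form, and the transcription factor encoded by Nfe2l1 is known to raise many subunit genes together when the proteasome is inhibited.

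Because each molecule is read from its poly(A) tail towards the start, levels of different genes were compared in CPM, with no division by length. The 20S core genes were the most abundant. Their mean over the 12 libraries ran from 249 CPM (Psma1) to 977 (Psmb1), with a median over genes of 456. The 17 base and lid genes ran from 107 (Psmd1, a scaffold of the base) to 320.1 (Psmc5, an ATPase), with a median of 219.7. The order of these means over all days, from the top, was Psmb1, Psmb6, Psmb3, Psmb7, Psmb4 and Psma6. The spread over all 12 libraries, changes between days included, was 50.4 to 80.2 CPM (SD) for Psmb7, Psmb4 and Psma6. These neighbours, at 519, 517 and 509, were not ranked further. Psmb7 and Psma6 had means of 591 and 491 at D0 and of 436 and 472 at D6. Psma1 was the one core gene with a mean below that of Psmc5. The 3 chaperone genes sat lower, at 58.6 (Psmd9), 58.8 (Psmd10) and 69.2 (Psmd5).

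**Figure D1:**
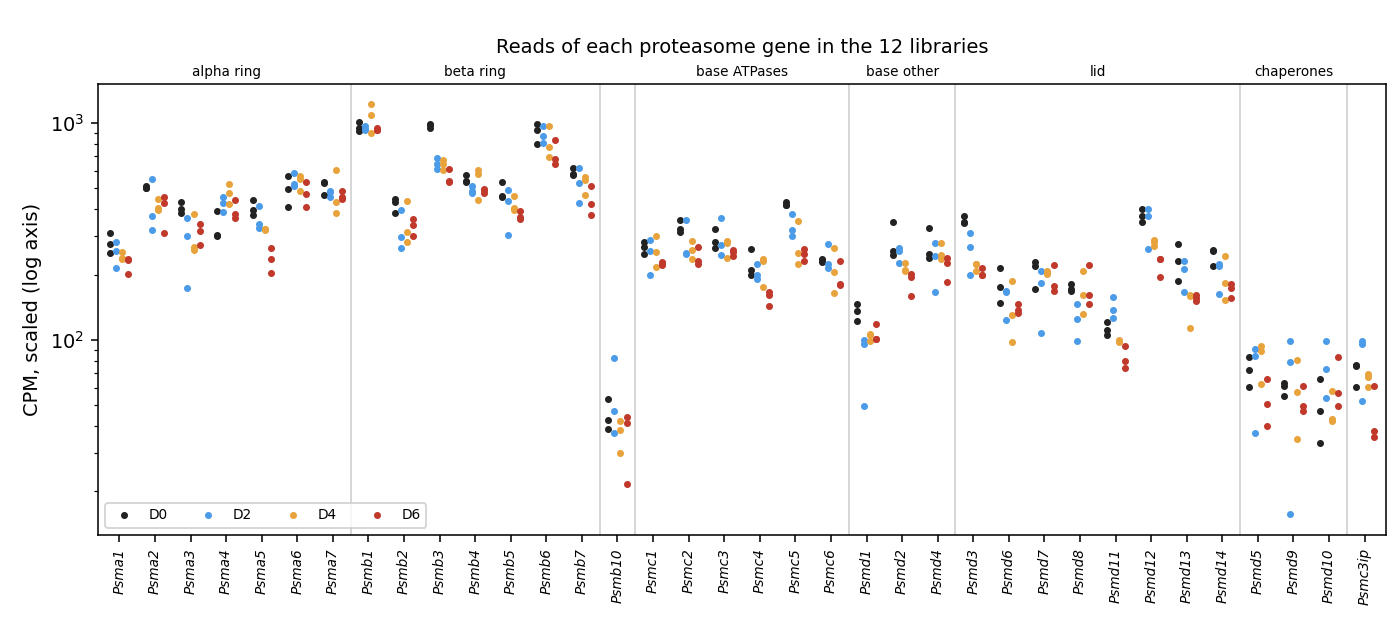
Scaled CPM (log axis) of the 36 genes with at least 30 reads, 1 point per library, coloured by day and grouped by place in the complex. Core genes lie mostly between 249 and 977 CPM on average, base and lid genes between 107 and 320.1, and chaperone genes, Psmb10 and Psmc3ip below 70.

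Of the variants of immune cells, Psmb8 and Psmb9 were at or near nothing and Psmb10 was read at a low level. Psmb8 had 0 of 4212664 reads, which allows a level of up to 0.719 CPM over all libraries (3 reads, for counting error only) and of up to 5.55 to 24.8 CPM in a single library. The same limits hold for Psma8, known from testis, and Psmb11, known from thymus. Psmb9 had 3 reads, 1 each in D2 replicate 1, D4 replicate 2 and D6 replicate 3, which is at the limit that a count of 0 allows. Psmb10 was detected in every library, at 39, 42.6 and 53.2 at D0, 82.7, 37.3 and 47.2 at D2, 42.3, 38.4 and 30.2 at D4, and 21.7, 44.2 and 41.2 at D6 CPM. Its libraries overlapped between D0 and D6, with a log2 change of −0.28 ± 0.3 (SE, adjusted p = 0.49). Its most read transcript is annotated as a retained intron (73 of 173 reads), and 31 reads fell on the protein-coding one. Among immune markers, Ptprc and Cd74 had no read, H2-Aa had 10, Tap1 16 and Irf1 28, and B2m was at 66.2 ± 18.1 CPM at D0 and 51.5 ± 14.1 at D6.

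Most reads of a gene ended at 1 position. In 26 of the 35 genes whose leading transcript is in the annotation, over 90% of its reads ended within 25 nt of the most used end. The most used end often lay upstream of the annotated one: by 938 nt in Psmb1, 2047 nt in Psma2, 1843 nt in Psma3 and 2366 nt in Psmd5. The canonical polyadenylation signals AATAAA or ATTAAA stood within the last 30 nt before the end in 33 of 35 genes (94.3%), against 7442 of 9183 genes with at least 30 reads (81%). The exceptions were Psmd1 and Psmc3ip. The sequences below are the last 30 nt before the most used end on the mm10 build (GENCODE vM21 transcripts, written as DNA, past the stop codon in each), with the signal in capitals. They are the ends from which the catalytic genes, the 5 genes with the lowest estimates at D6 and, beside them, Psmb1 were read.
Psmb5, chr14:54614125-54614154, minus strand: tctccatggctatAATAAAtaatagtacct
Psmb6, chr11:70527620-70527649, plus strand: gacgcagaagctAATAAAcagtttgttaaa
Psmb7, chr2:38588040-38588069, minus strand: attaaaataAATAAAtaaaaagacaaaaaa
Psmb1, chr17:15475959-15475988, minus strand: agtttgttttATTAAAaagaatgtaaagta
Psmb3, chr11:97713466-97713495, plus strand: tttgtttttctttttAATAAAattgccttt
Psma5, chr3:108279945-108279974, plus strand: gcaattctgaAATAAAaaaatttaaaaata
Psmc5, chr11:106263091-106263120, plus strand: ccaaccAATAAAggtctgtgtgatgataaa
Psmd3, chr11:98695950-98695979, plus strand: gatttttaaacAATAAAaagttctccagag
Psmd12, chr11:107497762-107497791, plus strand: attggaggtcATTAAAaaagaaagactgtt
All 9 ends carry a signal, ATTAAA in Psmb1 and Psmd12 and AATAAA in the others.

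The main comparison asked whether the subunit genes changed in abundance as the cells differentiated. At D6 against D0, 18 of the 36 genes tested fell and none rose (limma-voom, adjusted p of at most 0.05, adjusted over all 9291 genes tested), or 17 of 35 without Psmc3ip. Over all genes, 18.7% were called lower and 19% higher. The median log2 change was −0.35 over the 36 genes and 0.00 over all genes, and 34 of the 36 estimates were below 0. Every D6 library was below every D0 library for 23 of the 36, against 24% of all genes, and the reverse held for none of the 36, against 22.7% of all genes. These comparisons of single libraries, and those in CPM below, use the scaled sizes and were not repeated under another scaling. The lowest estimate was −0.80. The count of called genes depends on the scaling. With the library total alone the median of all genes moved up by 0.25 (log2). The split changed from 0 higher and 18 lower to 3 higher (Psma4, Psmb1 and Psmd10) and 5 lower. Medians were then −0.11 for the 36 genes and 0.25 for all genes. The 5 that stayed lower, Psmb3, Psmd3, Psma5, Psmc5 and Psmd12, were also called lower under all 25 alternatives tried. The count was 11 without D0 replicate 2, 10 without D6 replicate 2 and 9 without D6 replicate 3.

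**Figure D2:**
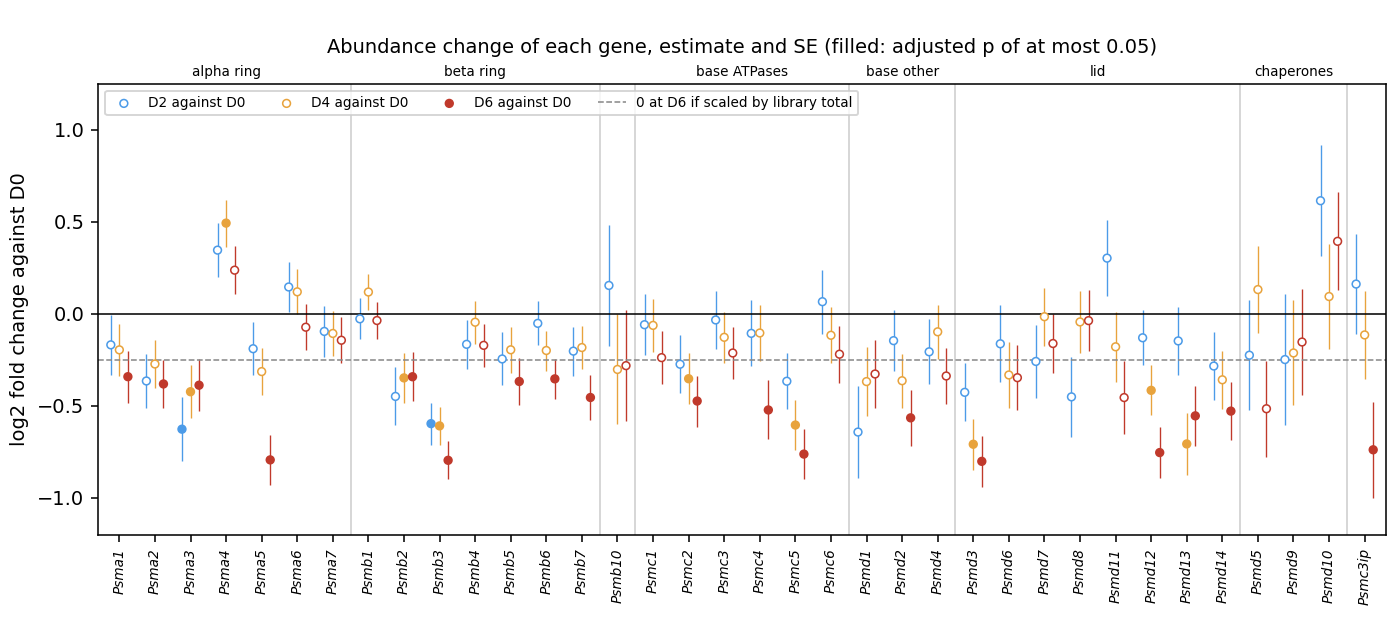
Log2 fold change of each gene at D2, D4 and D6 against D0 with its SE, grouped by place in the complex; filled points are called at an adjusted p of at most 0.05 and the dashed line marks where no change would lie at D6 if libraries were scaled by their totals. At D6, 18 points are filled, all below 0, and Psmd3, Psmb3, Psma5, Psmc5, Psmd12 and Psmc3ip lie below −0.7.

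In the 20S core, 9 of 14 genes fell at D6 (4 of 7 alpha, 5 of 7 beta), with a median log2 change of −0.35. With the library total alone, 2 of the 14 were called lower and 2 higher, with a median of −0.11. Psmb3, a structural beta subunit, was at 948, 983 and 992 at D0, 686, 613 and 645 at D2, 673, 644 and 609 at D4, and 538, 533 and 616 at D6 CPM. All 9 later libraries lay below the 3 of D0, and the change at D6 was −0.80 ± 0.1 (SE, adjusted p = 2.9e-09). Psma5, an alpha ring subunit, was at 441, 398 and 375 at D0, 413, 327 and 341 at D2, 326, 322 and 323 at D4, and 264, 236 and 203 at D6. Its D6 libraries lay below all the others, with −0.79 ± 0.14 (SE, adjusted p = 1.9e-06) against D0 and −0.48 ± 0.14 (SE, adjusted p = 0.022) against D4. All 3 catalytic genes were called lower at D6, none of them with the library total alone. The calls of Psmb5 and Psmb6 were each lost under 8 of 25 alternatives, and that of Psmb7 under 2. Among the 8 were the leading transcript alone for both genes and protein-coding transcripts alone for Psmb6. Psmb5 was at 461, 531 and 456 at D0, 438, 493 and 304 at D2, 406, 461 and 395 at D4, and 361, 369 and 390.4 at D6, and its D6 libraries were all below those of D0, with −0.37 ± 0.13 (SE, adjusted p = 0.017). Psmb6 was at 799, 984 and 930.5 at D0, 967, 869.5 and 808 at D2, 965, 771 and 697 at D4, and 831, 649 and 685 at D6, where 1 D6 library stood above the lowest of D0, with −0.35 ± 0.11 (SE, adjusted p = 0.0078). Psmb7 was at 617, 579 and 577 at D0, 620, 530 and 425 at D2, 563, 545 and 465 at D4, and 509, 423 and 377 at D6, with D6 below D0 throughout and −0.46 ± 0.12 (SE, adjusted p = 0.002). The other core genes that fell were Psma3 (−0.39, adjusted p = 0.025), Psma2 (−0.38, adjusted p = 0.015), Psmb2 (−0.34, adjusted p = 0.037) and Psma1 (−0.34, adjusted p = 0.048). Of these calls, those of Psma1 and Psmb2 were each lost under 19 of 25 alternatives, that of Psma3 under 11 and that of Psma2 under 6.

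The other core genes were not called at D6. Psma4, of the alpha ring, was at 305, 390.4 and 300.2 at D0, 455, 426 and 388 at D2, 520.5, 473 and 423 at D4, and 441, 379 and 363 at D6, and was higher at D4 than at D0 under all 25 alternatives (0.49 ± 0.13 (SE, adjusted p = 0.0021)). At D6 its libraries overlapped those of D0, with 0.24 ± 0.13 (SE, adjusted p = 0.15). Psmb1, with the highest mean over the 12 libraries, was at 950.5, 1008 and 919.8 at D0, 967, 923 and 939 at D2, 1219, 1088 and 895 at D4, and 928, 929 and 951 at D6, with −0.04 ± 0.1 (SE, adjusted p = 0.81) at D6. Psma6, Psma7 and Psmb4 had estimates of −0.07, −0.14 and −0.17 at D6, none called. The beta ring holds the products of Psmb3 and Psmb1 in equal number, and their CPM were 974 ± 23.2 and 959.6 ± 45.02 at D0 and 562 ± 46.4 and 936 ± 13.1 at D6.

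In the 19S base and lid, 8 of 17 genes fell at D6 and all 17 estimates were below 0, with a median of −0.46. With the library total alone, 3 of the 17 were called lower and 12 were below 0. Psmd3, of the lid, was at 346, 372 and 349 at D0, 198, 269 and 309.6 at D2, 224, 206 and 223 at D4, and 199, 198 and 214 at D6 CPM. Each D4 and D6 library lay below each of D0, with −0.80 ± 0.14 (SE, adjusted p = 3.3e-06) at D6. Psmd12, also of the lid, was at 373, 402 and 349 at D0, 372, 402 and 262 at D2, 288, 283 and 272 at D4, and 235, 236 and 195 at D6, and D6 was again wholly below D0, with −0.75 ± 0.14 (SE, adjusted p = 1.2e-05). Psmc5, an ATPase of the base, was at 417, 433 and 417 at D0, 380.3, 302 and 320.1 at D2, 224, 353 and 251 at D4, and 249, 263 and 231 at D6, with −0.76 ± 0.14 (SE, adjusted p = 6e-06). Psmd14, the deubiquitinase of the lid, was at 258, 257 and 219 at D0, 223, 219 and 163 at D2, 182, 242 and 153 at D4, and 173, 156 and 182 at D6, with no overlap of D6 and D0 and −0.53 ± 0.16 (SE, adjusted p = 0.0058). The other genes that fell were Psmd13 (−0.56, adjusted p = 0.005), Psmc4 (−0.52, adjusted p = 0.007), Psmc2 (−0.47, adjusted p = 0.0046) and Psmd2, described in the next paragraph. The call of Psmc4 was lost under 4 of 25 alternatives and those of Psmd13, Psmd14 and Psmc2 under 2 each.

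The ubiquitin receptors of the base were read with low mapping quality. Psmd2 was at 348, 255 and 245 at D0, 256, 265 and 226 at D2, 207, 226 and 209 at D4, and 159, 200.1 and 195 at D6, with D6 below D0 in every library and −0.57 ± 0.15 (SE, adjusted p = 0.002). Only 21.0% of its 977 reads had a mapping quality of at least 10 (353 were assigned to a transcript annotated for nonsense-mediated decay), and on those reads the estimate turned to 0.30 (adjusted p = 0.64). The call was also lost on the leading transcript and on protein-coding transcripts alone. Psmd4 was at 239, 328 and 249 at D0, 165, 244 and 278 at D2, 245, 278 and 235 at D4, and 238, 225 and 184 at D6, again with D6 below D0 in each library, but its change of −0.34 ± 0.15 (SE, adjusted p = 0.069) was not called, and 54.7% of its 1039 reads had a mapping quality of at least 10. None of the 17 base and lid genes rose. Psmd8 of the lid (−0.04) and Psmd7, the lid partner of the deubiquitinase (−0.16), had the estimates nearest to 0, and nearly all reads of Psmd8 (691 of 693) had a mapping quality under 10.

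None of the 3 chaperone genes was called. Psmd10, also known as gankyrin, was at 65.8, 33.3 and 46.8 at D0, 99.2, 53.8 and 73.5 at D2, 42.3, 43.2 and 58.1 at D4, and 83.1, 56.9 and 49.5 at D6, the highest estimate at D6 of all the genes (0.39 ± 0.27 (SE, adjusted p = 0.25)) but with overlapping libraries and no read of mapping quality 10 or more. Psmd5 was at 72.2 ± 11.2 at D0 and 52.2 ± 13.1 at D6 and Psmd9 at 59.9 ± 4.12 and 52.5 ± 7.53. Psmc3ip, outside the proteasome, was at 60.9, 75.9 and 76.7 at D0, 99.2, 95.2 and 52.5 at D2, 67.7, 69.6 and 60.4 at D4, and 61.4, 37.9 and 35.7 at D6, and fell by 0.74 on the log2 scale at D6 (SE 0.26, adjusted p = 0.02) although its lowest D0 library lay just under its highest D6 library, a call lost under 9 of 25 alternatives.

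The days between gave smaller numbers, against the same 3 D0 libraries. At D2, 2 genes were called lower, Psma3 (−0.63, adjusted p = 0.0093) and Psmb3 (−0.60, adjusted p = 8e-05), and none higher, where 6.1% of all genes were called lower and 4.73% higher. The call of Psmb3 held under all 25 alternatives and that of Psma3 was lost under 5. With the library total alone the split at D2 was 1 higher and 1 lower, and it was 0 higher and 1 lower without D2 replicate 3, 0 and 4 without D2 replicate 1, and 1 and 1 without D0 replicate 2. At D4, 8 were called lower, Psmb3, Psmd3, Psmd13, Psmc5, Psma3, Psmd12, Psmc2 and Psmb2, with log2 changes from −0.71 to −0.35, and Psma4 was called higher, where 12.5% of all genes were lower and 12.8% higher. The D4 calls of Psmb3, Psmd3, Psmd13, Psmc5 and Psma4 held under all 25 alternatives, while that of Psmc2 was lost under 17, that of Psmb2 under 13, that of Psma3 under 9 and that of Psmd12 under 5. With the library total alone the split at D4 was 2 higher and 4 lower, and the lower count was 5 without D0 replicate 2 and 4 without D4 replicate 3. From D2 to D4 no gene was called (limma-voom; 2 were lower and 0 higher by an unadjusted p under 0.05), where 2.02% of all genes were higher and 1.09% lower. From D4 to D6 Psma5 alone was called lower and none higher, where 4.33% of all genes were lower and 4.11% higher. The call of Psma5 was lost under 12 of 25 alternatives, among them the library total alone and leaving out any 1 of D4 replicates 1, 2 and 3 and D6 replicates 2 and 3.

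The balance of core to regulatory particle was described per library, with no test, as reads on the 14 constitutive core genes over reads on the 17 base and lid genes. It was 1.77, 1.80 and 1.82 at D0, 2.10, 1.73 and 1.74 at D2, 2.25, 1.90 and 1.97 at D4 and 2.07, 1.88 and 2.07 at D6. The means were 1.80 ± 0.0242, 1.86 ± 0.212, 2.04 ± 0.186 and 2.01 ± 0.107 (SD, n = 3). All 3 libraries of D4 and of D6 lay above the 3 of D0, and those of D2 lay on both sides of them. Summed levels of the core were 7806 ± 292 CPM at D0 and 6345 ± 383 at D6, and those of the base and lid 4338 ± 164 and 3162 ± 120. The size of these falls depends on the scaling. As a share of kept reads, with no scaling, all genes of the rule together held 1.14 ± 0.0217% at D0 and 1.05 ± 0.008% at D6. Reads per gene and not per subunit copy were summed, and reads of mapping quality 10 or more gave ratios of 2.01 at D0 and 2.30 at D6.

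**Figure D3:**
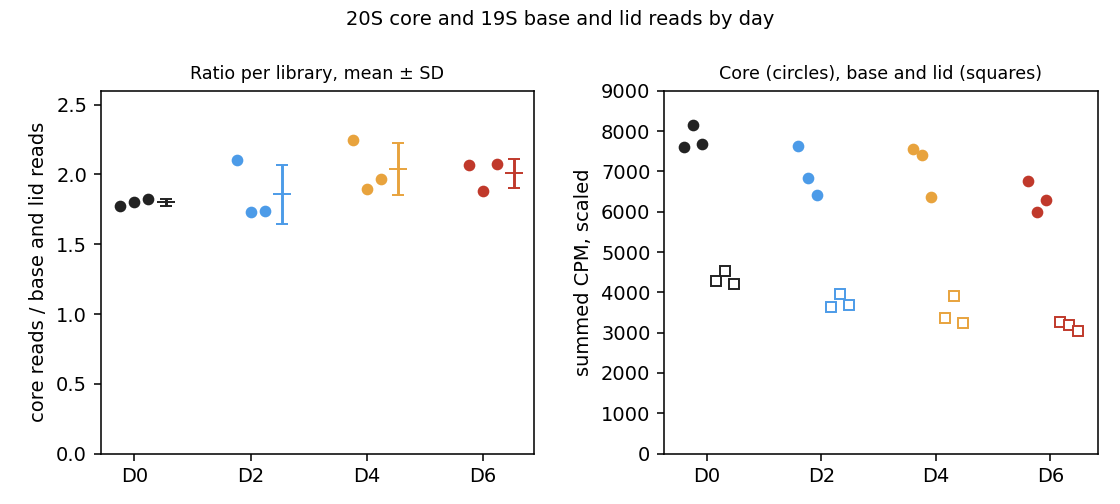
Left, reads on core genes over reads on base and lid genes in each library with the mean and SD of each day; right, the 2 sums as scaled CPM, circles for the core and squares for base and lid. The ratio is 1.80 ± 0.0242 at D0 and 2.01 ± 0.107 at D6, while both sums are lower at D6 than at D0.

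Promoters were searched for 3 motifs, chosen from general knowledge of proteasome genes, in the stretch from 250 bases before to 50 after each gene's start (RefSeq promoters on GRCm38.p6, both strands). A promoter was given for 31 of the 37 genes, among them 11 core and 14 base and lid genes. The letters CCGGAAG, which ETS factors are known to bind, stood in the promoters of 9 of the 14 base and lid genes and 1 of the 11 core genes, against 9.93% of all 27025 genes with a promoter. Each gene, here and in these shares of all genes, was counted once if any promoter given for it matched, and Psmc2 and Psma6 had 2 each. They also stood in that of Psmc3ip. The letters TGACNNNGC, bound by the products of Nfe2l1 and Nfe2l2, stood in those of 5 of the 31 genes (16.1%), Psmb5, Psmb6, Psmc6, Psmd12 and Psmd9, against 14% of all. CCAAT stood in those of 13 of the 31 genes (41.9%), against 41.1% of all. The motifs overlapped in no window shown. A match of letters is a description and no site. The stretches of 30 bases around CCGGAAG, or its reverse complement CTTCCGG, in base and lid genes are shown 5′ to 3′ on the strand of the gene with the motif in capitals.
Psmd12, chr11:107479500-107479529, plus strand: tgagcgggcgaCTTCCGGtgcgagtgacga
Psmd13, chr7:140882377-140882406, plus strand: cgcccgcggtgCCGGAAGtgagcgagcact
Psmd2, chr16:20651615-20651644, plus strand: tccgcagggcgCTTCCGGtctggaggacaa
Psmc2, chr5:21785180-21785209, plus strand: accagtgagcaCTTCCGGgatggggctcgc
Psmd4, chr3:95042721-95042750, minus strand: ttacagctgttCCGGAAGctgctgcgaagg
Psmd11, chr11:80428593-80428622, plus strand: cgagggcgggtCTTCCGGgtgtgtgtttcc
Psmd6, chr14:14120972-14121001, minus strand: cagagacgcgaCCGGAAGtcagactggcgg
Psmc1, chr12:100110163-100110192, plus strand: tggtggatgcaCTTCCGGcggtggcgattt
Psmc6, chr14:45329713-45329742, plus strand: aggcgggccagCCGGAAGgggcggagccag
The TGACNNNGC matches of the catalytic genes lay close to the start.
Psmb5, chr14:54618023-54618052, minus strand: cgtgaagttgTGACGTCGCggcgttgccag
Psmb6, chr11:70525338-70525367, plus strand: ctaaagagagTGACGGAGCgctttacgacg
The second promoter of Psmc2, downstream of the annotated start of its assigned transcript, holds the letters too. Most reads of Psmd13 were assigned to a transcript that starts upstream of the stretch shown. Only 0.43% of reads on the Psmc2 transcript and 0.52% on the Psmd13 transcript reached its first 100 nt. The reads therefore do not show which start was used in these 2 genes. Of the 9 base and lid genes with CCGGAAG, Psmd12, Psmd2, Psmd13 and Psmc2 fell at D6, and the other 5 (Psmd4, Psmd11, Psmd6, Psmc1 and Psmc6) were not called.

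The typical poly(A) tail of the core and of the base and lid genes was shorter than that of all genes, although single genes had longer ones. In all 12 libraries the median over core genes of their median tail, and that over base and lid genes, lay below the median over the 4196 genes tested. At D0 the core stood at 88.7, 94.4 and 94.7 nt, base and lid at 93.2, 95.1 and 94.5 nt and all genes at 104, 107 and 110 nt. At D6 these were 94.6, 93.2 and 97.5 nt, 100.5, 104 and 99.3 nt and 111, 113 and 113 nt. The core median was under that of base and lid in 10 of 12 libraries. By gene, the mean over libraries ran from 80.6 nt in Psmb7 to 116.7 nt in Psmb2, both of the beta ring, and from 87.9 nt in Psmd6 to 110.7 nt in Psmc4 for base and lid, with Psmd5 at 118 nt. Across the 36 genes, longer tails went with lower levels (Pearson r = −0.53 and Spearman rho = −0.57 between mean tail and log2 level, a description over genes that share the same libraries), and over all 4196 genes r was −0.37. Within the core r was −0.35 and within base and lid −0.24.

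Tail length was compared between days on all 36 genes tested. At D6 against D0, 1 gene, Psmd13 of the lid, was called with a longer tail and none with a shorter one (limma on median tails weighted by reads), where 2.45% of all genes were called longer and 2.93% shorter. The median change was 2.42 nt over the 36 genes and 4.26 nt over all genes. Psmd13 tails had medians of 75.3, 81.2 and 90.05 nt at D0, 102, 95.4 and 93.8 at D2, 77.7, 83.5 and 104 at D4 and 114, 96.05 and 111 at D6. All D6 values were above all D0 values, with a change of 23.2 ± 6.92 nt (SE, adjusted p = 0.037). The call was lost under 7 of 22 alternatives: without D0 replicate 1, D0 replicate 2, D6 replicate 1 or D6 replicate 3, with no weights, with the replicate block and without the runs whose names give no day.

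The other large changes were not called. Psmd5, the chaperone, had 94, 100.1 and 94.4 nt at D0 and 153, 117 and 122 at D6 (31.3 ± 13.1 nt (SE, adjusted p = 0.19)), and Psmd8 had 87.3, 100.2 and 93.4 and 121, 118 and 99.3 (19.6 ± 7.08 nt (SE, adjusted p = 0.11)). The largest falls were in Psmd9, with 106, 101 and 118 nt and 108, 89.2 and 89.6 (−14.5 ± 12.7 nt (SE, adjusted p = 0.63)), Psmd14, with 95.9, 92.5 and 105 and 80.6, 95.4 and 83.7 (−9.61 ± 6.43 nt (SE, adjusted p = 0.48)), and Psmd6, with 88.1, 86.7 and 90.8 and 84.7, 95.8 and 63.6 (−6.75 ± 8.34 nt (SE, adjusted p = 0.76)). In these 3 the D6 libraries overlapped those of D0, as they did in Psmd8, while in Psmd5 they lay above. Of the 5 genes that fell under every alternative, tails differed from D0 by −4.72 nt (Psmb3), 5.76 nt (Psmd3), −0.543 nt (Psma5), −3.09 nt (Psmc5) and 7.19 nt (Psmd12), none called. At D2 no proteasome gene was called (5 of 4196 genes, 0.119%, were longer and 1.88% shorter), nor at D4 (0.214% longer and 2.88% shorter).

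**Figure D4:**
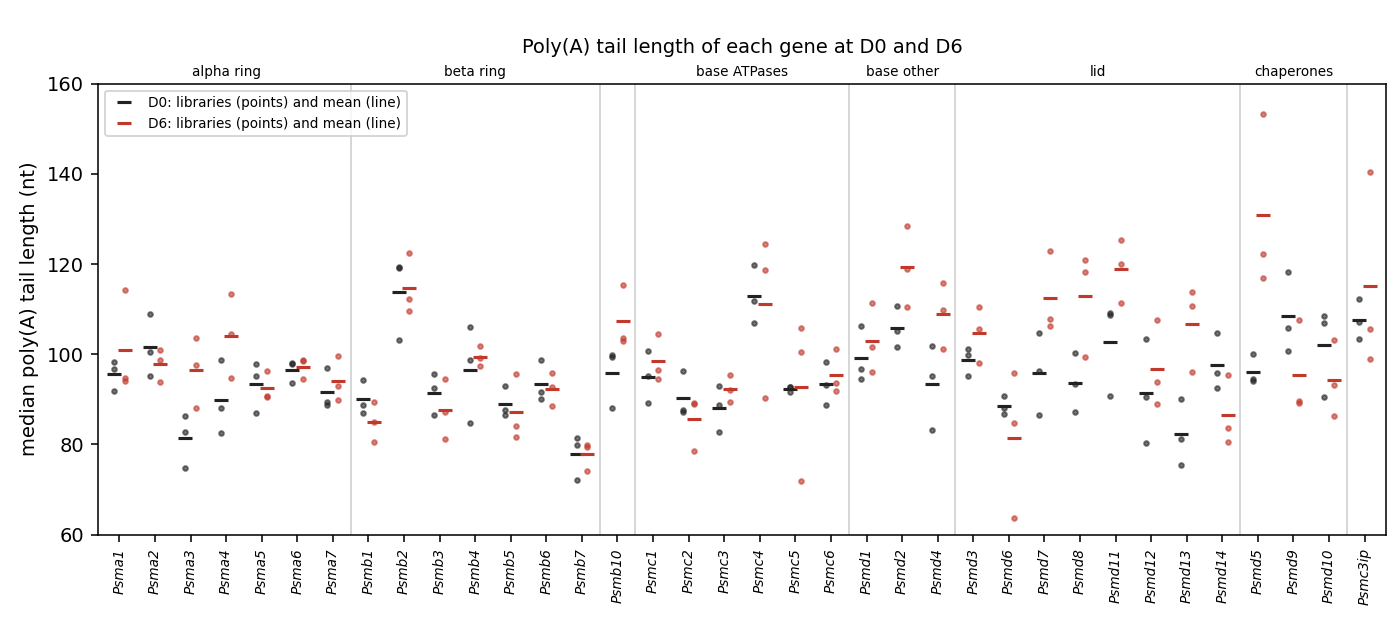
Median poly(A) tail length in nt of each gene at D0 and D6, with 1 point per library and a line for the mean of 3, grouped by place in the complex. Psmd13 moves from 82.2 to 107 nt, Psmb7 stays at 77.8 nt, and most genes overlap between the days.

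By tail class, 2 genes had fewer reads with tails of 30 to 90 nt at D6 (limma, adjusted over 4196 genes), where 0.977% of all genes had fewer and 2.45% more. Psmd13 had 60, 50.3 and 48.9% in that class at D0 and 34.9, 42.1 and 21.8% at D6, a change of −18.8 ± 4.56 percentage points (SE, adjusted p = 0.0018), and without D6 replicate 3 it was not called. Psmd4 had 43.9, 44.6 and 52.1% and 28.8, 35.5 and 35.8%, a change of −12.9 ± 4.04 points (SE, adjusted p = 0.043), a call that 9 of 16 alternatives lost. For tails under 30 nt, no proteasome gene was called, where 1.22% of all genes had more and 0.0715% fewer. The largest change there was in Psma5, 6.16 ± 1.36 points (SE, adjusted p = 0.075).

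Of the leading transcripts, 6 had a second end at least 100 nt away that held at least 10% of reads: those of Psmc6, Psmd5, Psmd8, Psmd9, Psmd11 and Psmd12, none of the 20S core. In Psmd11, a lid gene with ends 1282 nt apart (chr11, positions 80471966 and 80473248, plus strand), the share of reads at the distal end was 39.02, 33.9 and 37.7% at D0, 52.6, 17.9 and 23.8% at D2, 26.3, 30 and 35.9% at D4 and 40, 45.95 and 56% at D6. Each D6 library was above each D0 library (two-sided exact permutation test, p = 0.1, the smallest that 3 against 3 can give, and 0.6 adjusted over the 6 genes). In Psmd12 it was 23.1, 23.8 and 22.8% at D0 and 33.3, 23.2 and 24.2% at D6 (exact permutation p = 0.2). For the other 4 the exact permutation p lay between 0.4 and 0.7. In all 6 genes molecules ending at the distal site had the longer median tail, over all libraries together: 127 against 88.5 nt in Psmd11, 102 against 83.9 nt in Psmc6 and 98.4 against 90.4 nt in Psmd12, and the same order held in the other 3.

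**Figure D5:**
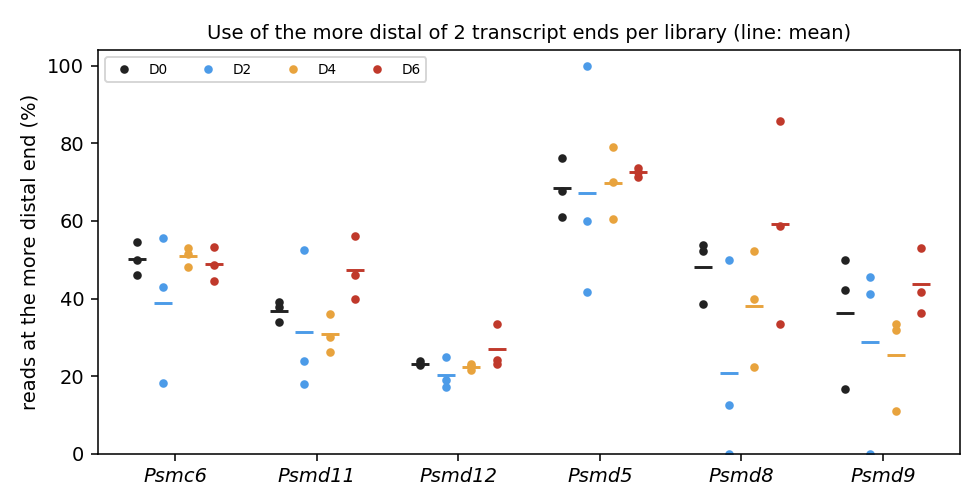
Share of reads (%) at the more distal of 2 ends in each library for the 6 genes with a second end, with points for libraries and a line for the mean of each day. In Psmd11 the D6 libraries, at 40, 45.95 and 56%, lie above those of D0, while in Psmc6 and Psmd12 the days overlap.

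The caspase-like subunit gene Psmb6 was read as 2 transcripts. Of its 3414 reads, 757 fell on a transcript annotated as a retained intron (chr11:70527072-70527858), and that transcript's share of the gene's reads was 23.5, 23.5 and 28.4% at D0, 17.9, 23.3 and 24.03% at D2, 14.9, 16.2 and 19.7% at D4 and 22.6, 21.8 and 24.1% at D6. The 3 libraries of D4 lay below the 3 of D0, and D6 overlapped D0. Median tails of the 2 transcripts were 92.6 nt on the retained intron and 90.9 nt on the coding one.

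Genes that act with the proteasome moved in both directions. Of 22 symbols listed for other proteasome genes (Sem1 also under its older symbol Shfm1), 19 were tested. Of these, 3 rose and 7 fell at D6 (4 with the library total alone, where 6 rose). The activator genes Psme4 (179 ± 13.2 to 83.3 ± 10.6 CPM, log2 change −1.08 (adjusted p = 4.2e-06)) and Psme3 (225 ± 2.96 to 127 ± 26.7, −0.82 (adjusted p = 9.7e-05)) fell, as did the assembly chaperones Psmg1 (−0.84 (adjusted p = 0.0026)) and Psmg4 (−0.47 (adjusted p = 0.031)), the deubiquitinases of the 19S particle Usp14 (−0.61 (adjusted p = 0.013)) and Uchl5 (−0.72 (adjusted p = 0.017)), and Ecpas (−0.92 (adjusted p = 0.0045)), a proteasome adaptor. Sem1, a small lid subunit outside the naming rule, rose (329 ± 47.4 to 444 ± 53.9, 0.41 (adjusted p = 0.012)), as did Zfand5 (0.64 (adjusted p = 0.00095)), which stimulates the proteasome, and Akirin2 (0.51 (adjusted p = 0.017)), which carries it into the nucleus. Pomp, the chaperone of the beta ring, was at 346 ± 15.2 and 375 ± 27.3 and was not called.

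Of 8 genes listed for the transcription of proteasome genes, 6 were tested and none was called at D6 (limma-voom; 0 higher and 1 lower by an unadjusted p under 0.05). Nfe2l1 was at 123 ± 31.8 CPM at D0 and 96.5 ± 32.8 at D6, with 60.5 ± 23.01 and 51.95 ± 16.2 on the 2 days between. It was lower than at D0 at D2 (−1.04, adjusted p = 0.017) and at D4 (−1.14, adjusted p = 0.00041), and rose from D4 to D6 (0.87, adjusted p = 0.034). With the library total alone no gene of this list was called lower at D2, while 1 was at D4. Of 14 symbols for ubiquitin and its delivery (Ufd1 also under its older symbol Ufd1l), 13 were tested. Of these, 4 rose and 5 fell (6 rose and 1 fell with the library total alone). Ubb, which encodes polyubiquitin, rose (2248 ± 107 to 3301 ± 532, 0.52 (adjusted p = 8.5e-08)), and Rps27a, which encodes ubiquitin fused to a ribosomal protein, fell (−0.62 (adjusted p = 8.3e-15)). Of the shuttle genes, Rad23b (−0.48 (adjusted p = 0.0064)) and Ubqln4 (−0.63 (adjusted p = 0.0092)) fell and Ubqln2 (0.90 (adjusted p = 0.00069)) rose. Of the genes for the VCP segregase, which extracts ubiquitin-tagged proteins, Nploc4 fell (−0.76 (adjusted p = 0.012)), Ufd1 rose (0.62 (adjusted p = 0.04)) and Vcp was not called (−0.24 (adjusted p = 0.095)).

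Other large complexes were set beside the proteasome by their counts alone. The COP9 signalosome, built much like the lid, had 10 genes tested, of which 1 rose (Cops9) and 2 fell (Cops3 and Cops7a) at D6, with a median log2 change of −0.06. With the library total alone 3 rose and 1 fell. The translation factor eIF3 had 10 of 13 genes lower and a median of −0.50 (5 lower and −0.25 with the library total alone), and the CCT chaperonin had 7 of 8 lower and a median of −0.62 (6 lower and −0.37). Proteasome genes, with 17 of 35 lower and a median of −0.35 (Psmc3ip left out; 5 lower and −0.10 with the library total alone), lay between these, and no test of a difference between complexes was made.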

How the data were processed

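Direct RNA reads of 12 libraries (D0, D2, D4 and D6, 3 replicates each) were taken from the per-read table of the authors, who called bases with Guppy, aligned to mouse transcripts of mm10 with minimap2 (2.20 in the submitters' processing notes), measured tails with Nanopolish and read barcodes with Deeplexicon. Its mapping quality is a score of the aligner, its barcode confidence is a deposited fraction per read, and tail length is in nt, not normalised. A second deposited table holds the authors' log2 fold changes with p-values from DESeq2 and was not used. Of 6306434 lines, 69 were malformed and dropped, 6017105 had a barcode, 4673531 passed the tail caller, and 4212664 lay on nuclear mRNA genes, pseudogenes aside (118587 to 602155 per library). Repeated reads made up 0.0565% and stayed in.

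Reads were tallied per gene and library and fitted with limma-voom (limma 3.58.1, R 4.3.3) on all 12 libraries. Scaling was by a trimmed mean of M-values (30% and 5% trimmed), with a pseudocount of 0.5 reads, and genes needed 30 reads in all. CPM (reads per 1000000) use these scaled sizes. The tallies were made here from a per-read table, so count models were not used. Median tails and percentages of reads under 30 nt and from 30 to 90 nt were fitted with limma, weighted by reads, for genes with a mean of 10 reads and at least 3 in each library. Deviations of same-numbered libraries from the day means correlated over 0.1 in all 3 pairs between D4 and D6 (0.131 to 0.234). Between any other days they did not in all 3 (−0.169 to 0.356). D4 replicate 3 with D6 replicate 2 gave 0.144, so these values establish no pairing, and the labels give none. P-values were adjusted by Benjamini-Hochberg over all genes and called at 0.05. The steps were tested on simulated data. Python 3.11.15, numpy 2.4.6, pandas 2.3.3, scipy 1.17.1 and matplotlib 3.10.9 were used. The methods call the 3 replicates of a day biological and pool them by barcode for sequencing, with no further word on separate cultures, so p-values measure the spread between these libraries.

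Per-library values were given for Psmb5 to Psmb10, Psmd2, Psmd4, Psmd14, Psmc3ip and the 3 highest and 3 lowest estimates at D6 (2 were above 0, none called, and Psmb1 was next) among genes with a mean of 10 reads, and every called proteasome gene was named. Of the other lists, not every called gene is reported here. Psmc5 and Psmd12 were shown in full after their values were seen. For tails, the 3 highest and 3 lowest estimates and every call were given. The genes, lists and classes were chosen with earlier results of these data known. The motifs and the search for second ends were added after the data were seen.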

Additional observations from a re-analysis of the deposited data

How the results depend on the processing

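Each count was recomputed under the alternatives planned and 2 added after seeing the data (protein-coding transcripts only, and without the D6 runs whose names give no day). With the library total alone, genes lower at D6 numbered 5, against 18, and higher 3, lower at D4 4 and higher 2, lower at D2 1 and higher 1, and lower from D4 to D6 0. With limma-trend, lower at D6 were 11, at D4 4, at D2 4 and from D4 to D6 0. With the leading transcript only, lower at D6 were 11, at D2 1 and from D4 to D6 0. With mapping quality of at least 10, lower at D2 were 1, higher at D4 2, lower from D4 to D6 0, and Psmd2 turned to 0.30 at D6. Without a filter on low reads 1 was higher at D2 and 0 lower from D4 to D6, with a mean of 10 reads 1 was higher at D2 and 1 lower from D2 to D4, with every quality tag 1 was lower from D2 to D4, and with barcode confidence of at least 0.75 or protein-coding transcripts only 0 were lower from D4 to D6. Leaving out 1 replicate gave 9 to 18 lower and 0 to 1 higher at D6, 4 to 10 lower and 1 to 1 higher at D4, 1 to 4 lower and 0 to 1 higher at D2, and 0 to 1 lower from D4 to D6.

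The cause of these changes was not tested, and some alternatives also leave out reads or samples. For tails at D6, longer genes were 2 with the mean tail, and 0 with no weights, with the replicate block and without the runs whose names give no day, and 0 to 1 when 1 replicate was left out. At D4, 0 to 1 were shorter. For 30 to 90 nt at D6, 1 gene was lower with limits of 25 and 95 nt, with no weights and with the replicate block, and 0 to 2 without 1 replicate, and under 30 nt 0 to 1 were higher. With the replicate block 17 were lower at D6 against D0 and 1 from D4 to D6, and the D4 calls of Psmb2 and Psmc2 against D0 were lost. With mapping quality of at least 10 the core ratio was 2.01 (D0), 2.07 (D2), 2.30 (D4) and 2.30 (D6), and 2.03 at D0 and 2.21 at D6 by the median over genes. Depth limits D2, where Psmd9 had as few as 3 reads and Psmd1 as few as 6 in a library.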
